A study of Mus musculus with 7 samples.

Results

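The day 1 difference between PhIP/DSS and DSS was described by setting 1 library against another, 2 of the 7 libraries of the series. Colon epithelium scraped from the muscle layer 1 day after PhIP/DSS treatment was compared with the same tissue 1 day after DSS treatment. All mice were female hCYP1A animals on a C57BL/6 background, 6 weeks old, which carry the human CYP1A genes in place of their mouse counterparts, and the controls carry them too. The DSS mice drank 1.5% dextran sulfate sodium for 5 days. The PhIP/DSS mice first received 2 doses of PhIP at 100 mg/kg, 4 days apart, and about a week later the same DSS course. Equal amounts of RNA from 3 mice made up each pool, and each pool was sequenced once, so no value below has a replicate and no test of the day 1 difference was possible. There was no library of mice given PhIP alone, so an effect of PhIP without DSS was not measured. The other 5 libraries, an untreated control and both treatments on days 3 and 7, are used for reference levels. The labels give colitis as the pathology of both day 1 pools.

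DSS is a sulfated polysaccharide that injures the colonic epithelium and lets luminal bacteria reach the tissue. Injured epithelium and resident macrophages then release interleukin 1 and CXC chemokines, which bring neutrophils into the mucosa, while epithelial cells secrete antimicrobial proteins and later close the wound. PhIP is a heterocyclic amine that arises in cooked meat. CYP1A enzymes oxidise it to a reactive form that binds DNA, and the usual transcriptional signs of such damage are the targets of p53.

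Both libraries were of similar depth, with uniquely mapped reads over 15849 genes in DSS and 16048 genes in PhIP/DSS, and their read totals are given with the processing. Levels are given as the deposited RPKM, a read count scaled by gene length and by the library total. Differences are given as the ratio of depth-scaled reads between the libraries, followed in parentheses by an exact 95% counting interval, which covers the counting of reads and neither the spread between mice nor that between library preparations. PCR copies are not independent molecules, so the true counting error may be wider. A gene was counted as higher or lower when the ratio was 2-fold or more, which is a description of this pair and not a test. A gene with 0 reads in one library was entered at 3 reads, and its fold is a lower bound.

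Of 13577 genes with at least 10 reads over the pair, 1275 were higher in PhIP/DSS by 2-fold or more, which is 9.39%, and 366 were lower, which is 2.7%. The median log2 ratio over all these genes was 0.02. Among the higher genes, 599 differed by 4-fold or more and 203 by 8-fold or more. Among the lower genes, 44 differed by 4-fold or more and 11 by 8-fold or more. The higher genes took 2.498% of the reads in PhIP/DSS and 0.607% in DSS. In 896 of the 1275, the PhIP/DSS day 1 library was the highest of all 7 libraries, and in 267 of the 366 lower genes it was the lowest. The genes were chosen on that library, so its place at the extreme follows in part from the choice and is only a description. Many of the calls rest on few reads, since 598 of the higher genes had fewer than 10 reads in DSS and reached the minimum through PhIP/DSS. Likewise, 204 of the 366 lower genes had fewer than 10 reads in PhIP/DSS. Just outside the threshold, 672 genes were higher by 1.5 to 2-fold and 648 were lower by as much. Just inside it, 307 were higher by 2 to 2.5-fold and 195 were lower.

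**Figure D1:**
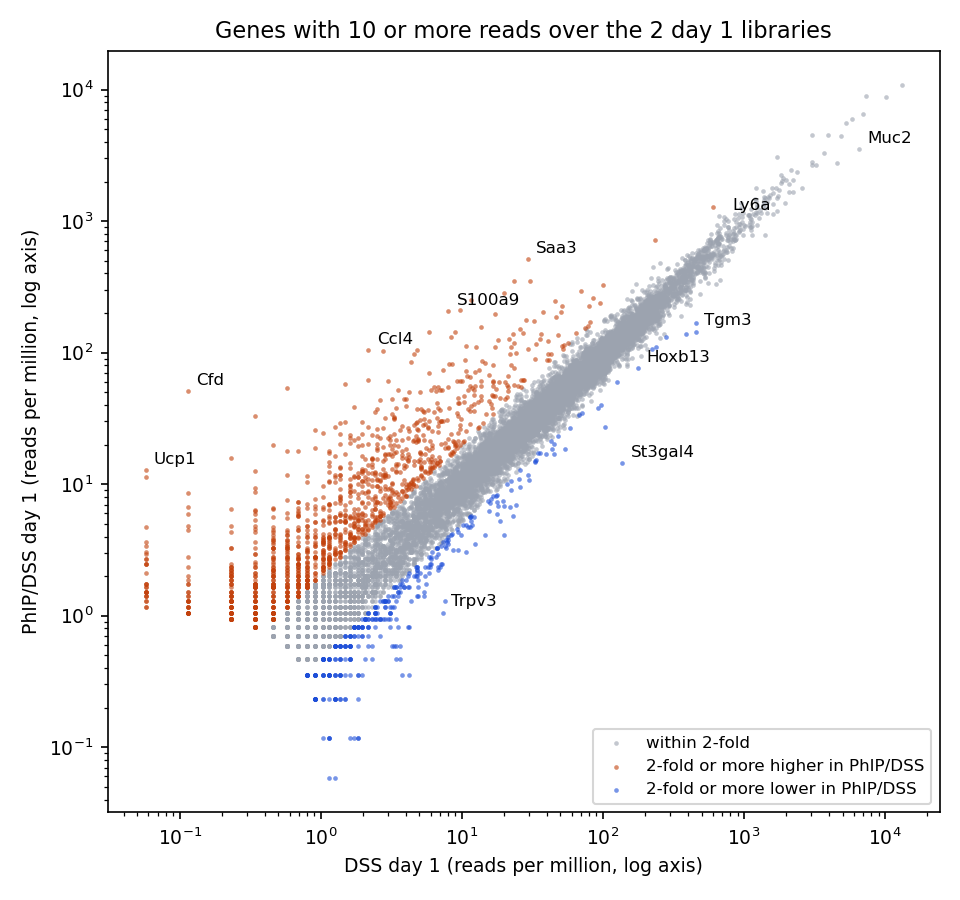
Depth-scaled reads of each gene with 10 or more reads over the pair, in the DSS day 1 library (horizontal, log axis) and the PhIP/DSS day 1 library (vertical, log axis). The 1275 orange genes were 2-fold or more higher in PhIP/DSS and the 366 blue genes were 2-fold or more lower. The orange points reach much farther from the diagonal than the blue ones, with Cfd and Ucp1 at the far left, where genes with 0 reads in DSS are drawn on the outermost column, and St3gal4 the farthest of the abundant lower genes.

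The list of neutrophil-attracting CXC chemokines was mostly higher after PhIP/DSS. Of 6 measured members of this list, 5 were higher by 2-fold or more in PhIP/DSS and none was lower, with a median log2 ratio of 2.46. Cxcl2, at chr5:90903899-90905938 in mm10, was at 0.12 RPKM in the control, at 4.02, 27.2 and 23 RPKM in the DSS libraries of days 1, 3 and 7 and at 78.3, 3.29 and 4.51 RPKM in the PhIP/DSS libraries. The PhIP/DSS day 1 library was thus the highest of the 7, and the difference on day 1 was 19.5-fold (14.1 to 27.8). Cxcl3 was higher by 14.8-fold (9.51 to 24.3), with 304 reads in PhIP/DSS against 21 in DSS. Cxcl1 differed less, by 3.1-fold (2 to 4.94). Cxcl5, the most abundant of them in DSS, was at 21.5 RPKM in PhIP/DSS against 11.1 RPKM in DSS, and its ratio of 1.94-fold (1.6 to 2.37) fell just short of the threshold. The platelet chemokines Ppbp and Pf4, held in the same list, are counted among the 5 on few reads. Ppbp had 19 reads in PhIP/DSS against 2 in DSS, and Pf4 had 14 against 7. Cxcr2, the neutrophil receptor for Cxcl1, Cxcl2, Cxcl3 and Cxcl5, was higher by 4.43-fold (3.02 to 6.68). Markers of the cells that make or follow these chemokines moved with them. All 18 measured neutrophil markers were higher, with a sum of 993 RPKM in PhIP/DSS against 59.2 in DSS. Of these 18, 4 had fewer than 10 reads in DSS and reached the minimum only with the PhIP/DSS reads. Higher too were 12 of 15 macrophage markers, with a sum of 633 RPKM in PhIP/DSS against 132 in DSS. So were 14 of 15 fibroblast markers, with a sum of 355 RPKM in PhIP/DSS against 76.2 in DSS. The part of these cells in the result was not tested. In bulk RNA more cells of a type and more RNA per cell cannot be told apart, here and in every group described.

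Cxcl1, Cxcl2 and Cxcl3 lie in 1 cluster on chromosome 5 and were all higher, so their promoters are shown, from RefSeq on GRCm38.p6 and on the plus strand, each with 250 bases before and 50 bases after the start. They span chr5:90890995-90891294, chr5:90903649-90903948 and chr5:90785851-90786150. Capitals mark every match, on both strands, to GGGNNNTTCC, a form of the site bound by NF-kappaB, the factor through which interleukin 1 and TNF act.
Cxcl1: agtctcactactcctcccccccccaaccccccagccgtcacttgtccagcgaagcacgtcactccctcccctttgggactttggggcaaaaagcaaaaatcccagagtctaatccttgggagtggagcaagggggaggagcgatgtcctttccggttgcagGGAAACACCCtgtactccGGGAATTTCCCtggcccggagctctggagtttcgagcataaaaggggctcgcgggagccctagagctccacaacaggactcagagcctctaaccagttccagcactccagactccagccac
Cxcl2: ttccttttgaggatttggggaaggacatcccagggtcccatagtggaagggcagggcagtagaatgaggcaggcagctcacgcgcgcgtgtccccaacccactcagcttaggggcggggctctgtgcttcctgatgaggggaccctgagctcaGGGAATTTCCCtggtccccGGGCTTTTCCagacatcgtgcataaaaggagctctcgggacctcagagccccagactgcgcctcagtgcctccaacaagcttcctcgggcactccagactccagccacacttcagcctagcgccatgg
Cxcl3: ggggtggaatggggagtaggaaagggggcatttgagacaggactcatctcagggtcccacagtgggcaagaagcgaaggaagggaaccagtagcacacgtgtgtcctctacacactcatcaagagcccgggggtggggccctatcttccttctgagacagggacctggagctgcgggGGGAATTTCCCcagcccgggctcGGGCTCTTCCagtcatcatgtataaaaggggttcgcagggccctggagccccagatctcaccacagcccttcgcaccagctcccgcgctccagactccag
Each of the 3 held 3 matches, of which 2 overlap because 1 stretch reads as a match on both strands, and the matches begin between 97 and 50 bases before the start. Such a match was present in 5.56% of all 32851 RefSeq promoters of this length, in 6.31% of those of the genes with 10 reads and in 7.84% of those of the higher genes. A match is a stretch of letters and was not measured as a bound site here.

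The acute mediators showed the same direction. Of 18 measured, 16 were higher and none was lower, with a median log2 ratio of 2.98. Of the 18, 5 had fewer than 10 reads in DSS and reached the minimum only with the PhIP/DSS reads. Il1b, at chr2:129364569-129371164, was at 1.28 RPKM in the control, at 17.7, 127 and 101 RPKM in the DSS libraries of days 1, 3 and 7 and at 263, 7.51 and 36.1 RPKM in the PhIP/DSS libraries. It stood 14.9-fold (12.9 to 17.3) above DSS on day 1. Il1a was higher by 8.74-fold (6.6 to 11.8) and Tnf by 5.63-fold (4.22 to 7.65). Ptgs2, the inducible cyclooxygenase of prostaglandin synthesis, was higher by 15.9-fold (12.5 to 20.4). The largest ratios of the list belonged to the CC chemokines Ccl4 and Ccl3, made by activated myeloid cells, which differed by 48.2-fold (30.7 to 80.5) and 37.5-fold (25.1 to 58.9). Osm, an interleukin 6 family cytokine of myeloid cells, was higher by 31.1-fold (13 to 97.1) and Csf3, the growth factor of neutrophils, by 36.5-fold (12.2 to 179.7). Il6 had 10 reads in PhIP/DSS against 0 in DSS, a difference of at least 3.41-fold. Il1rn and Nos2, both also made by epithelium, were already abundant in DSS and were each higher by 3.06-fold. Lif and Il33, an epithelial and stromal alarmin, stayed within the threshold at 1.39-fold and 1.56-fold.

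Markers of the cells that make many of these products differed in the same direction. The neutrophil list, 18 of 18 higher in PhIP/DSS, had a median log2 ratio of 4.03, the highest of the 34 lists. In it, 4 of the 18 had fewer than 10 reads in DSS. S100a9, a subunit of calprotectin, was at 0.802 RPKM in the control, at 16.4, 583 and 236 RPKM in the DSS libraries of days 1, 3 and 7 and at 426, 14.4 and 31.7 RPKM in the PhIP/DSS libraries. The day 1 ratio was 25.9-fold (20.4 to 33.4) for S100a9, 22.3-fold (13.3 to 40.3) for the neutrophil resistin Retnlg and 16.6-fold (10.9 to 26.6) for Csf3r, the receptor of granulocyte colony-stimulating factor. Summed over the list, neutrophil markers were at 21 RPKM in the control, 59.2, 1335 and 601 in DSS on days 1, 3 and 7, and 993, 81.8 and 179 in PhIP/DSS. On that sum the PhIP/DSS day 1 library lay with the DSS libraries of days 3 and 7 and not with the DSS library of its own day. Ly6g was listed in no library, so a lack of reads cannot be told from its absence from the annotation used. Camp, a granule gene of immature neutrophils, had 3 reads in PhIP/DSS against 0 in DSS. No macrophage or monocyte marker was lower by 2-fold, and the median log2 ratio of that list was 2.08. Spp1, secreted by inflammatory macrophages, differed by 24.6-fold (18.6 to 33.2) and Csf1r by 6.05-fold (4.82 to 7.68). Mertk and Cx3cr1, which mark resident macrophages, were not higher. Mertk had 230 reads in PhIP/DSS against 378 in DSS, and Cx3cr1 had 19 against 25. These were exceptions in a list of which 12 of 15 were higher, among them Adgre1 by 4.26-fold (2.71 to 6.96). They do not describe resident macrophages as a whole.

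Lymphocyte markers differed less and on few reads. Of 11 T and NK cell markers, 7 were higher, with a median log2 ratio of 1.52, but 6 of the 11 had fewer than 10 reads in DSS. Cd4 and Cd8a differed by 3.93-fold (2.11 to 7.89) and 3.8-fold (1.61 to 10.4), whereas Cd3e, a subunit of the T cell receptor complex on both subsets, was at 20 reads in PhIP/DSS against 17 in DSS. Of 10 B and plasma cell markers, 4 were higher, with a median of 0.88, among them Jchain of secreted antibody polymers at 3.37-fold (2.79 to 4.09). Of 6 mast cell and eosinophil markers, Siglecf was higher on 12 reads in PhIP/DSS against 6 in DSS and Kit was lower by 2.24-fold (1.81 to 2.79).

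**Figure D2:**
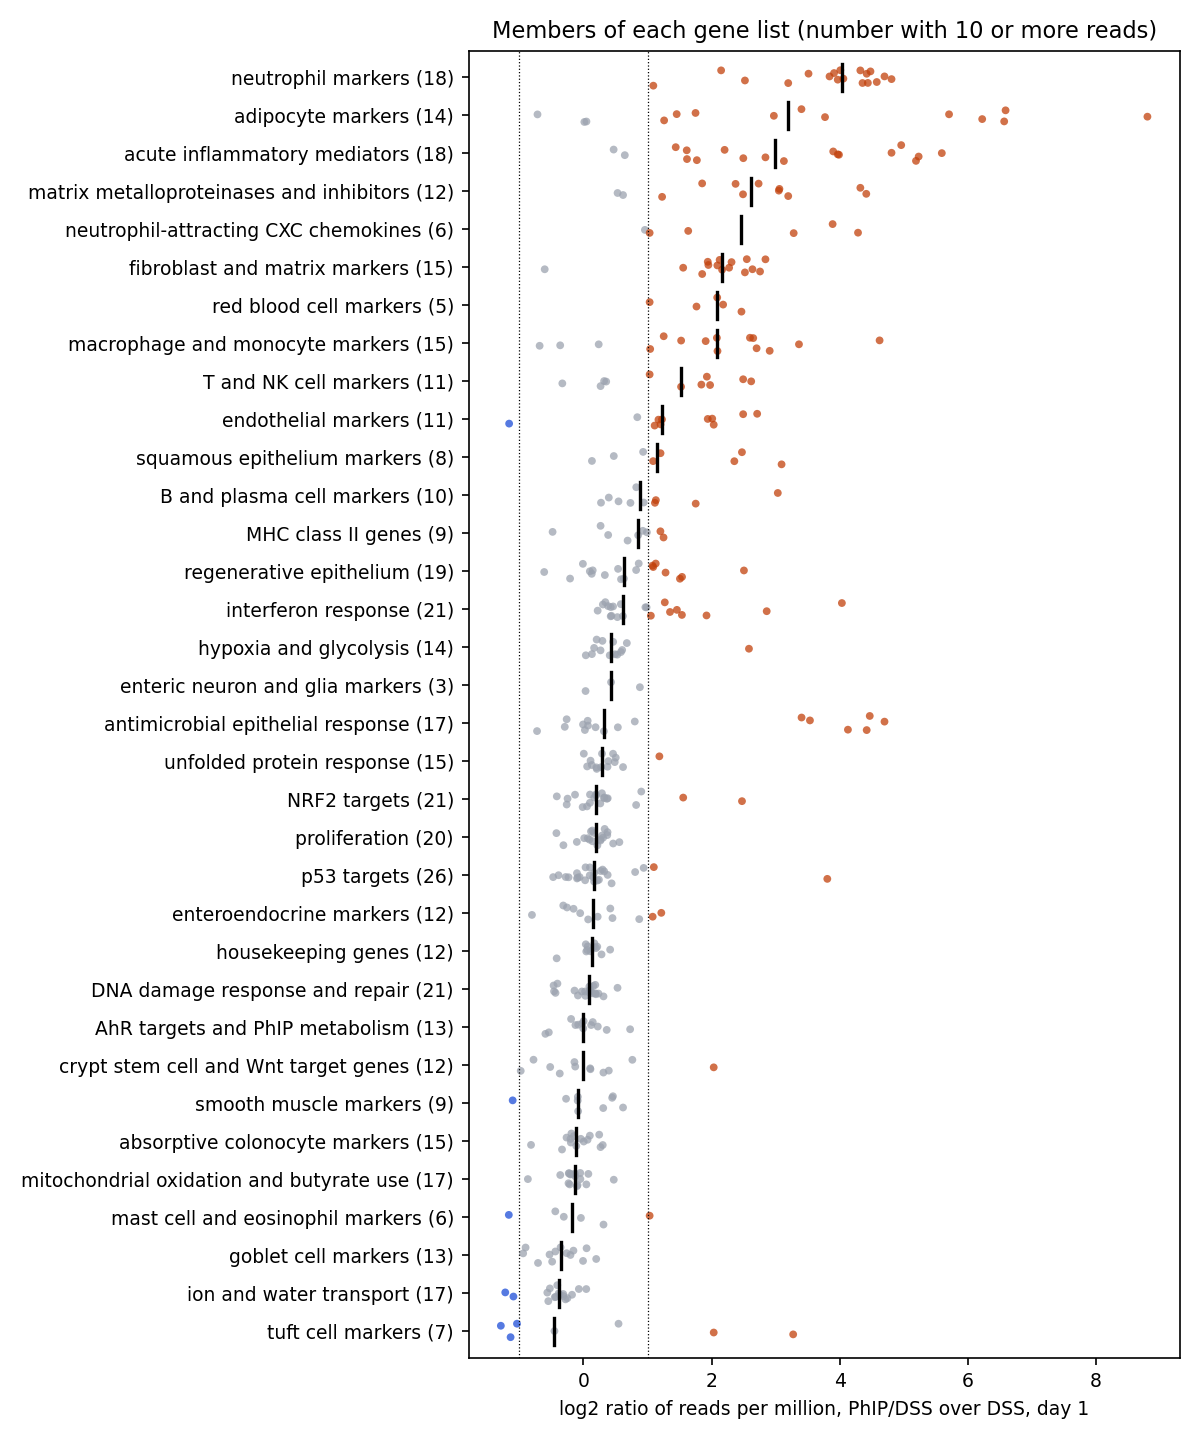
Log2 ratio of depth-scaled reads, PhIP/DSS over DSS on day 1, for each member of 34 gene lists with 10 or more reads, 1 point per gene, with the list median as a bar and dotted lines at 2-fold. Neutrophil markers, acute mediators and metalloproteinases lie almost wholly to the right of the threshold, while absorptive, goblet, proliferation and DNA repair genes lie between the lines. In the antimicrobial list 6 genes stand apart from the other 11.

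Among antimicrobial proteins of the epithelial response the members split. Of 17, 6 were higher by 3.4 or more on the log2 scale and the other 11 stayed within 2-fold. The 6 were S100a8, S100a9, Lcn2, Saa3, Reg3b and Reg3g. Saa3, an acute-phase serum amyloid made locally in inflamed tissue, was at 1.72 RPKM in the control, at 55.2, 442 and 122 RPKM in the DSS libraries of days 1, 3 and 7 and at 965, 6.04 and 27.1 RPKM in the PhIP/DSS libraries. It was higher by 17.5-fold (15.4 to 19.9) on day 1. Reg3b, a lectin that binds bacteria, was at 1.72 RPKM in the control, at 40, 166 and 4.15 RPKM in the DSS libraries of days 1, 3 and 7 and at 463, 37.1 and 3.14 RPKM in the PhIP/DSS libraries. Its day 1 difference was 11.6-fold (10.2 to 13.2), and Reg3g differed by 10.6-fold (8.54 to 13.2). Lcn2, which withholds bacterial iron carriers, was higher by 22.1-fold (17.8 to 27.9). Lcn2 is made by neutrophils as well as by epithelium, and S100a8 and S100a9 are above all neutrophil products and stand in both lists. Saa1, the colonic epithelial form, was at 1174 RPKM in PhIP/DSS against 941 RPKM in DSS and Saa2 had a log2 ratio of 0.07. Duox2 and Duoxa2, the epithelial oxidase and its maturation factor, had log2 ratios of 0.07 and 0.80. Pigr, the carrier of antibody across the epithelium, was lower by 1.65-fold (1.63 to 1.68), within the threshold. Reads shared by near-identical copies, such as Saa1 and Saa2, Reg3b and Reg3g, or the alpha globins, could not be assigned by unique mapping, so values of such genes are uncertain to that extent.

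Saa1 and Saa3 lie within the same cluster on chromosome 7 and differed in their ratio, so their promoters are set side by side, at chr7:46742931-46743230 and chr7:46715627-46715926 on the minus strand (RefSeq, GRCm38.p6). Capitals mark matches, on both strands, to TTGCNNAA, a form of the site bound by C/EBP factors of the acute-phase response.
Saa1: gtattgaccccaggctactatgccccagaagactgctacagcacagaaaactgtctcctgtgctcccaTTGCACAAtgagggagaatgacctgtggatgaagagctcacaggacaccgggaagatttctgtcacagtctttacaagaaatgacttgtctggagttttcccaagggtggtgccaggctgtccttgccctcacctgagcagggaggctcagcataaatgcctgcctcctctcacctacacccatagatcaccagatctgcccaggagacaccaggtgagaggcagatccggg
Saa3: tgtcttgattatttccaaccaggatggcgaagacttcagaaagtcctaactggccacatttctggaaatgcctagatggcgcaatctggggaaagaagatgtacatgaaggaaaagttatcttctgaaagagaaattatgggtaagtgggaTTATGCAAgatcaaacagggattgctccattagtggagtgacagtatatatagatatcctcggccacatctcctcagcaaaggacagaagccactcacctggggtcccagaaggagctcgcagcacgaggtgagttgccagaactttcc
Both held 1 match, at 182 bases before the start in Saa1 and at 99 in Saa3. The motif was present in 10.8% of all RefSeq promoters, in 8.83% of those of the genes with 10 reads, in 12.5% of those of the higher genes and in 16.2% of those of the lower genes.

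Connective tissue genes formed the other large group among the higher ones. Of 15 fibroblast and matrix markers, 14 were higher, with a median log2 ratio of 2.16. Col3a1, a fibrillar collagen, was at 2.09 RPKM in the control, at 9.26, 21.2 and 24.8 RPKM in the DSS libraries of days 1, 3 and 7 and at 40.4, 10.5 and 19.7 RPKM in the PhIP/DSS libraries. The day 1 difference was 4.36-fold (3.93 to 4.84) for Col3a1, 3.84-fold (3.39 to 4.36) for Col1a1 and 4.96-fold (4.25 to 5.82) for the matrix proteoglycan Dcn. Fap, which marks activated fibroblasts, was the exception at 9 reads in PhIP/DSS against 14 in DSS. Of 12 metalloproteinases and their inhibitors, 10 were higher, with a median log2 ratio of 2.61. Timp1, an inhibitor of these enzymes, differed by 21.3-fold (12 to 41.8), the collagenase Mmp13 by 8.33-fold (6.7 to 10.5) and the stromelysin Mmp10 of wound-edge epithelium by 6.65-fold (5.24 to 8.52). Mmp7, an epithelial matrilysin, was at 8.81 against 5.74 RPKM and was far above both on the later days of either arm, at 52.5 RPKM in DSS on day 3. Of 11 endothelial markers, 9 were higher and Vwf alone was lower, by 2.24-fold (1.16 to 4.53), but 7 of the 11 had fewer than 10 reads in DSS and reached the minimum through PhIP/DSS. Kdr and Cdh5, the receptor for VEGF and a junctional cadherin, had 32 reads in PhIP/DSS against 5 in DSS and 44 reads in PhIP/DSS against 8 in DSS. Smooth muscle markers did not move with the fibroblast genes. Of 9, none was higher and Myh11 was lower on 5 reads in PhIP/DSS against 11 in DSS, and Acta2 was at 5.33 against 3.87 RPKM.

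Fat and blood markers also separated the pools. Of 14 adipocyte markers, 11 were higher, with a median log2 ratio of 3.19, but 8 of the 14 had fewer than 10 reads in DSS and reached the minimum through PhIP/DSS. Cfd, the adipocyte factor adipsin, had 436 reads in PhIP/DSS against 1 in DSS, a ratio of 446-fold (79.6 to 17652). Fabp4 had 282 reads in PhIP/DSS against 3 in DSS and was at 4.04 RPKM in the control, at 0.532, 1.59 and 0.187 RPKM in the DSS libraries of days 1, 3 and 7 and at 51.1, 0.735 and 0.737 RPKM in the PhIP/DSS libraries. Ucp1, the uncoupling protein of brown fat, had 109 reads in PhIP/DSS against 0 in DSS, a difference of at least 37.2-fold, and it had no read on day 3 or 7 of either arm. Plin1, Plin4, Retn and Lep were at 0 reads in DSS on day 1. Pparg and Pnpla2, which colonocytes also express, stayed within the threshold at log2 ratios of 0.05 and 0.01. Summed over the list, adipocyte markers were at 162 RPKM in the control, 155, 137 and 147 in DSS on days 1, 3 and 7, and 333, 138 and 121 in PhIP/DSS. All 5 red blood cell markers with 10 reads were higher, though 1 of the 5 had fewer than 10 reads in DSS. Hbb-bs was higher by 4.53-fold (3.6 to 5.75), and the sum of the list was 105 RPKM in PhIP/DSS against 24.2 in DSS. Of 8 squamous epithelium markers, 5 were higher, but 4 of the 8 had fewer than 10 reads in DSS and reached the minimum only with the PhIP/DSS reads. Among the 5 was Krt5 of basal cells at 25 reads in PhIP/DSS against 0 in DSS, while Krt13 was within the threshold at 6.78 against 4.88 RPKM. Enteric neuron and glia markers were near 0 in both, with 3 of 11 reaching 10 reads and none of these past the threshold. Fat, red blood cell, fibroblast, endothelial, neutrophil, macrophage and lymphocyte markers thus had higher summed levels in the PhIP/DSS pool than in the DSS pool. Summed mast cell and eosinophil markers were lower, at 40.9 against 50.3 RPKM, and smooth muscle markers were nearly level, at 46 against 45 RPKM. The part of these cells in the differences of single genes was not tested.

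Of 21 interferon-response genes, 8 were higher by 2-fold or more, 13 stayed within the threshold and none was lower, with a median log2 ratio of 0.62, and the ratio was above 1 for all 21. Cxcl10 and Cxcl9, chemokines for activated T cells, differed by 7.26-fold (5.56 to 9.6) and 3.78-fold (2.95 to 4.91). Ido1, a tryptophan-degrading enzyme, differed by 2.55-fold (2.09 to 3.12). The cell-intrinsic antiviral genes Irf1 and Ifit1 were within the threshold, with log2 ratios of 0.22 and 0.53. Of 9 MHC class II genes, which present antigen on leukocytes and on inflamed epithelium, 2 were higher, with a median of 0.85. H2-Eb1 differed by 2.38-fold (2.03 to 2.79), and Cd74, the invariant chain, was just inside 2-fold at 314 RPKM in PhIP/DSS against 158 RPKM in DSS.

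Genes of the epithelial lineages differed far less, and the labelled tissue was borne out by them, with summed absorptive colonocyte markers of 8299 RPKM in PhIP/DSS against 8369.7 in DSS. Of 15 absorptive colonocyte markers none passed 2-fold in either direction, with a median log2 ratio of -0.11, and 6 had a ratio above 1. Of all genes, 9.39% were higher and 2.7% were lower. Lists this short cannot tell few or no calls from those shares. The same holds for the transport, goblet, enteroendocrine, stem cell and proliferation lists below. Car1, a carbonic anhydrase, was at 1881 RPKM in PhIP/DSS against 1527 RPKM in DSS, and the water channel Aqp8 at 267 against 274 RPKM. Slc26a3, the chloride and bicarbonate exchanger, was lower by 1.26-fold (1.21 to 1.32). Of 17 ion and water transport genes, 15 stayed within the threshold and 2 were lower, with a median log2 ratio of -0.39. Only 1 of the 17 had a ratio above 1. The lower ones were Best2, a bicarbonate channel of goblet cells, lower by 2.33-fold (1.93 to 2.82), and Atp12a, the colonic proton pump, with a log2 ratio of -1.09.

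Goblet cell markers gave no member past 2-fold among 13, with a median log2 ratio of -0.36, and 2 of the 13 had a ratio above 1. Muc2, the gel-forming mucin of the colon, at chr7:141690340-141754691, was at 1180.0 RPKM in the control, at 892, 1238 and 939 RPKM in the DSS libraries of days 1, 3 and 7 and at 477, 807 and 548 RPKM in the PhIP/DSS libraries. It was lower in PhIP/DSS on day 1 by 1.87-fold (1.84 to 1.9), a narrow counting interval just inside the threshold, and the 3 PhIP/DSS libraries were all below the 4 others. Creb3l1, a factor of secretory cells, was lower by 1.92-fold (1.84 to 2.01) and Fcgbp, a mucus protein, by 1.44-fold (1.41 to 1.47). Tff3, the trefoil peptide of the same cells, was at 1131 against 985 RPKM.

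Of 7 tuft cell markers, 2 were higher and 3 were lower. Trpm5, Pou2f3 and Il17rb, a channel, a lineage factor and a receptor of tuft cells, were lower on few reads, with 20 reads in PhIP/DSS against 42 in DSS for Trpm5. Alox5ap, which leukocytes also express, was higher by 9.66-fold (6.58 to 14.7). The list's median of -0.45 over 7 genes sits between opposite members and was 0.55 where 50 reads were required. Of 12 enteroendocrine genes, 2 were higher, Sct and Scg2, and the hormones Gcg, Pyy and Insl5 stayed within the threshold. Of 12 stem cell and Wnt target genes, 1 was higher, Olfm4 on 12 reads in PhIP/DSS against 0 in DSS. Their median log2 ratio was -0.01, and 6 of the 12 had a ratio above 1. Lgr5, the receptor of crypt base stem cells, was at 41 reads in PhIP/DSS against 72 in DSS, a ratio lower by 1.72-fold (1.15 to 2.58). Ascl2 and Axin2 went the other way, higher by 1.7-fold (1.15 to 2.53) and 1.24-fold (1.04 to 1.48). All 20 proliferation genes stayed within 2-fold, with a median of 0.19, and 17 of the 20 had a ratio above 1. Mki67, the lowest of the list, was at 32.4 against 43.4 RPKM, and Rrm2, the highest, at 37.6 against 25.5 RPKM.

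Genes of the regenerating epithelium were mixed. Of 19, 7 were higher and none was lower, with a median log2 ratio of 0.63. Ly6a (Sca-1), which marks fetal-like repair epithelium, was at 196 RPKM in the control, at 719, 821 and 692 RPKM in the DSS libraries of days 1, 3 and 7 and at 1079, 618 and 824 RPKM in the PhIP/DSS libraries, so that all 6 treated libraries were above the control. Its day 1 ratio of 1.5-fold (1.45 to 1.55) was below the threshold. Clu, a marker of revival cells, differed by 2.18-fold (1.92 to 2.49) on day 1, and it was highest on day 7, at 460.1 RPKM in DSS and 395 RPKM in PhIP/DSS. The EGF receptor ligand Ereg differed by 2.9-fold (2.39 to 3.54) and Il1rl1, the interleukin 33 receptor, by 5.67-fold (4.69 to 6.9). Anxa1 was at 235 against 162 RPKM and Sprr2a1 was lower by 1.53-fold (1.14 to 2.06).

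**Figure D3:**
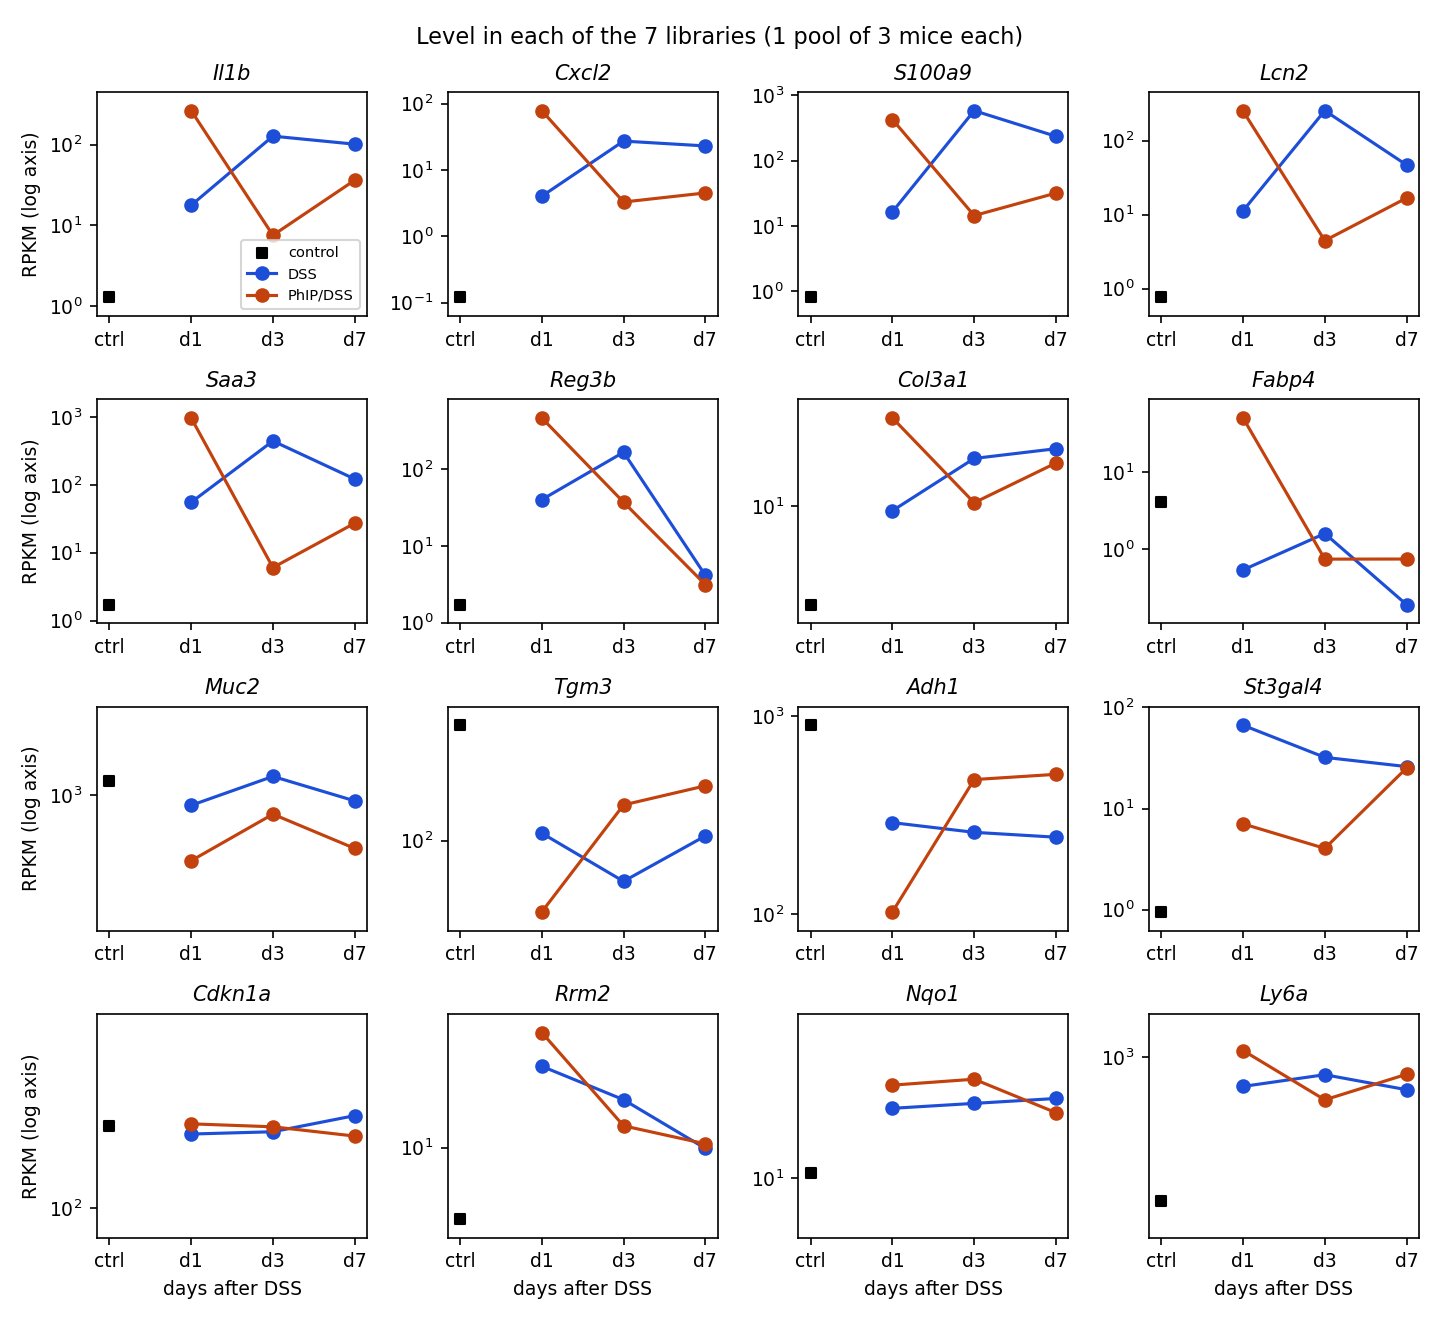
Deposited RPKM (log axis, own scale per gene) of 16 genes in each of the 7 libraries, with the control as a square, DSS in blue and PhIP/DSS in orange, 1 pool of 3 mice per point. Il1b, Cxcl2, S100a9, Lcn2, Saa3 and Reg3b were high in PhIP/DSS on day 1 and in DSS on day 3. Fabp4 was highest in PhIP/DSS on day 1, Muc2 was lowest in the 3 PhIP/DSS libraries, and Cdkn1a was nearly level throughout.

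The genes that answer to DNA damage were read separately because PhIP forms DNA adducts. Of 26 p53 targets, 2 were higher by 2-fold or more and none was lower, a share near the 9.39% higher and 2.7% lower of all genes. Cdkn1a, the cell cycle inhibitor p21 and the best known target, at chr17:29090979-29100722, was at 252 RPKM in the control, at 231, 237 and 284 RPKM in the DSS libraries of days 1, 3 and 7 and at 259, 251 and 226 RPKM in the PhIP/DSS libraries. The 7 libraries spanned a narrow range, and the day 1 ratio was 1.12-fold (1.07 to 1.17). Mdm2, which degrades p53, had a ratio of 1.25-fold (1.09 to 1.43), Ccng1 was at 54.9 against 57.2 RPKM and Bax, which opens mitochondria in apoptosis, at 33.6 against 28.9 RPKM. The 2 past the threshold, Cd80 and Fas, are also carried by leukocytes, and Cd80 had 41 reads in PhIP/DSS against 3 in DSS. None of 21 DNA damage response and repair genes passed 2-fold, with a median log2 ratio of 0.09. Brca1 was at 1.92 against 1.69 RPKM. With 1 pool per side these values do not show that the damage response was the same in both, and the interval to the last PhIP dose was longer than the DSS course.

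Genes of PhIP metabolism gave no call. Of 13 aryl hydrocarbon receptor targets and PhIP-metabolising genes with 10 reads, none passed 2-fold, beside 9.39% higher and 2.7% lower of all genes. So short a list cannot tell none from those shares. A ratio above 1, with no threshold, was found for 6 of the 13. Sult1a1, a sulfotransferase that activates the hydroxylated amine, was lower by 1.51-fold (1.35 to 1.68), and Nat2 was at 18.9 against 17.4 RPKM. Mouse Cyp1a1 and Cyp1a2, which these animals lack, were listed in no library, and the human CYP1A genes are not analysed here. Cyp1b1 had 0 reads on day 1 in both and Ahrr had 1 read in each, too few for a ratio.

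In the stress and metabolic lists the share past the threshold was near that of all genes, 9.39% higher and 2.7% lower. Of 21 NRF2 targets, 2 were higher, Hmox1 by 5.55-fold (4.55 to 6.83) and Slc7a11, a cystine importer, by 2.94-fold (2.47 to 3.51), whereas Nqo1 and Gclc were at 28.7 against 22.1 RPKM and 36.1 against 31.5 RPKM. Hmox1, which degrades heme, is also a macrophage gene. Of 15 unfolded protein response genes, 1 was higher, Trib3 on 20 reads in PhIP/DSS against 9 in DSS, and Hspa5, the main chaperone of the endoplasmic reticulum, was at 382 against 278 RPKM. All 15 had a ratio above 1, with a median log2 ratio of 0.29. Of 14 hypoxia and glycolysis genes, 1 was higher, Pfkfb3 by 5.99-fold (5.15 to 6.99), and all 14 had a ratio above 1. None of 17 genes of mitochondrial oxidation and butyrate use passed 2-fold, with a median of -0.13, and 3 of the 17 had a ratio above 1. The 12 housekeeping genes stayed within 2-fold, with a median of 0.14, and 11 of the 12 had a ratio above 1.

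Among single genes lower in PhIP/DSS, 12 were taken for the lowest upper bounds of their counting intervals. St3gal4, a sialyltransferase, at chr9:35046576-35116864, was at 0.951 RPKM in the control, at 66.6, 32.1 and 26 RPKM in the DSS libraries of days 1, 3 and 7 and at 7.05, 4.04 and 25.1 RPKM in the PhIP/DSS libraries. It was thus near 0 in the control, high in DSS on day 1 and lower by 9.45-fold (7.85 to 11.5) in PhIP/DSS. Tgm3, a transglutaminase that crosslinks proteins of the surface epithelium, was at 542 RPKM in the control, at 111, 55 and 107 RPKM in the DSS libraries of days 1, 3 and 7 and at 35.2, 169 and 223 RPKM in the PhIP/DSS libraries. It was lower by 3.17-fold (2.97 to 3.38), and both day 1 libraries were far below the control. Adh1, an alcohol and retinol dehydrogenase, was lower by 2.82-fold (2.64 to 3.01), at 103 RPKM in PhIP/DSS against 289 RPKM in DSS and 897 RPKM in the control. Eno3, a glycolytic enolase, was lower by 3.81-fold (3.3 to 4.43) and Fut9, a fucosyltransferase, by 4.01-fold (2.92 to 5.6). Trpv3, a warmth-activated channel, and Casp14, a caspase of keratinising epithelium, rest on 9 reads in PhIP/DSS against 64 in DSS and 11 reads in PhIP/DSS against 66 in DSS. Nxpe2, Ror1, Col8a1, Meg3 and 2310079G19Rik completed the 12, lower by 4.83-fold, 10.8-fold, 7.82-fold, 3.51-fold and 12.1-fold. For Ror1, Col8a1 and 2310079G19Rik the PhIP/DSS library had 3 or 4 reads.

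At the other end, the 12 genes with the highest lower bounds were Cfd, Car3, Fabp4, Ccl4, Ucp1, Cd36, Ccl3, Chil3, S100a9, G0s2, Spp1 and Chil1. Car3, Fabp4, Cfd, Cd36 and Ucp1 are abundant in adipose tissue. Car3, a muscle and fat carbonic anhydrase, had 463 reads in PhIP/DSS against 5 in DSS and the fatty acid transporter Cd36 had 97 reads in PhIP/DSS against 0 in DSS, a difference of at least 33.1-fold. Chil3 and Chil1, chitinase-like proteins of myeloid cells and inflamed epithelium, differed by 39-fold (22.6 to 73.8) and 28.6-fold (18.1 to 47.9). G0s2, an inhibitor of triglyceride breakdown that neutrophils also carry, had 135 reads in PhIP/DSS against 2 in DSS.

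On the later days the direction between the arms was not the same. On day 3, 372 of 13465 genes were higher in PhIP/DSS, 2.76%, and 811 were lower, 6.02%. On day 7, 483 of 13639 were higher, 3.54%, and 447 were lower, 3.28%. Of the 1275 genes higher on day 1, 579 were lower by 2-fold or more on day 3, which is 45.4% of the day 1 genes and 71.4% of those lower on day 3, and 33 were higher again. On day 7, 227 of the 1275 were lower, 17.8% of them and 50.8% of the genes lower that day, and 116 were higher. Of the 366 genes lower on day 1, 75 were higher on day 3, 20.5% of them and 20.2% of those higher that day, and 20 were lower again. On day 7, 44 of the 366 were higher and 16 were lower. Il1b illustrates this, with log2 ratios of 3.90 on day 1, -4.08 on day 3 and -1.49 on day 7, as does Saa3, with 4.13, -6.19 and -2.17. In both genes the PhIP/DSS level was much lower on day 3 than on day 1, while the DSS level was higher on day 3. Each day compares other animals in 1 pool per arm, and whether pools differ this much within an arm was not measured. The days are those of the labels, from which the deposited day codes differ, so the order of days rests on the labels.

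**Figure D4:**
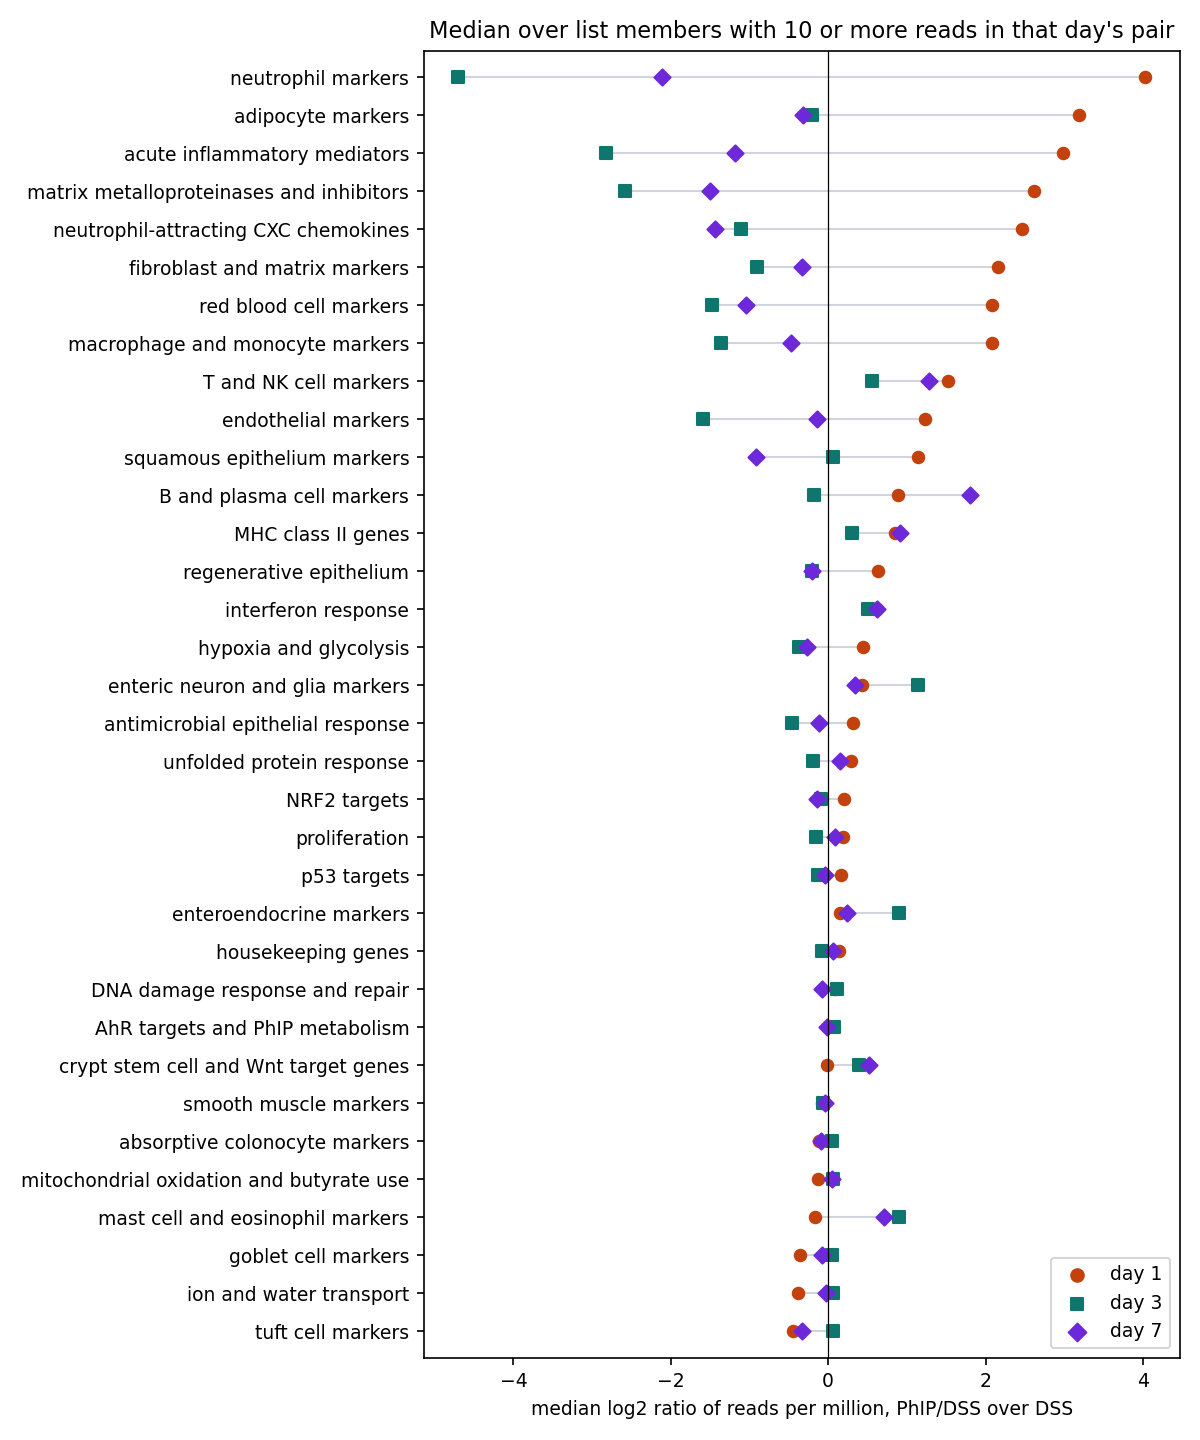
Median log2 ratio of depth-scaled reads, PhIP/DSS over DSS, for each list on day 1 (circles), day 3 (squares) and day 7 (diamonds), over members with 10 or more reads in that day's pair. Neutrophil markers went from 4.03 on day 1 to -4.70 on day 3 and -2.11 on day 7. Adipocyte markers stood at 3.19 on day 1 and at -0.20 and -0.31 on days 3 and 7, and absorptive colonocyte markers stayed between -0.11 and 0.05.

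Not every list turned. The interferon list had medians of 0.62, 0.51 and 0.63 on days 1, 3 and 7, and T and NK cell markers 1.52, 0.56 and 1.28. B and plasma cell markers were highest on day 7, at 1.81, when 7 of 10 were higher in PhIP/DSS. Absorptive colonocyte markers stayed between -0.11 and 0.05. Of the 12 top genes higher on day 1, 8 were lower by 2-fold or more on day 3 and 8 on day 7. The rest mostly had fewer than 10 reads over the later pair. These were Cfd, Cd36 and Ucp1 on day 3, when Car3 was higher, and Cfd, Car3, Fabp4 and Ucp1 on day 7. Of the 12 top genes lower on day 1, 7 were higher on day 3 and 5 on day 7.

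The day 1 ratio also depended on gene length. Among genes with 50 or more reads, the median log2 ratio went from 0.16 in the shortest sixth of genes, up to 1501 bases, to -0.16 in the longest, from 5087 bases. The same medians ran from 0.07 to -0.02 on day 3 and from 0.07 to 0.00 on day 7. The span on day 1 is small beside the folds above but similar in size to the medians of some lists. With log2 ratios centred within these sixths, a setting chosen after seeing the data, the medians of the p53, proliferation and housekeeping lists were 0.09, 0.19 and 0.029, against 0.16, 0.19 and 0.14.

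**Figure D5:**
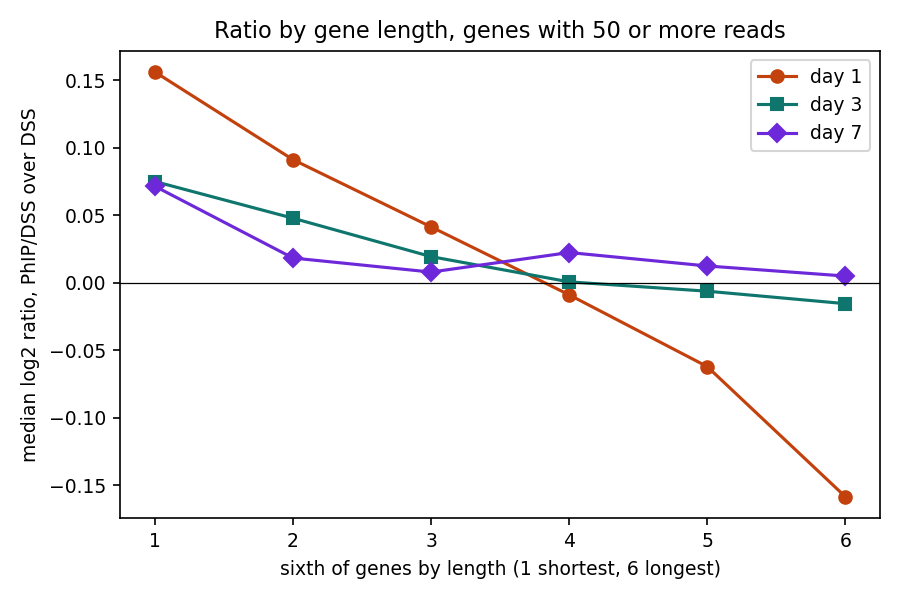
Median log2 ratio of depth-scaled reads, PhIP/DSS over DSS, in sixths of genes by length, for the pairs of day 1, day 3 and day 7, over genes with 50 or more reads in the pair. On day 1 the median fell steadily from 0.16 in the shortest sixth to -0.16 in the longest, and on days 3 and 7 the line was flatter.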

How the data were processed

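RNA was enriched with oligo(dT) and sequenced on an Illumina instrument, per the labels' protocols. Each deposited table gives, per the file headers, a count of unique reads for each gene, the percent of gene length covered and the RPKM. The deposited RPKM equalled reads over length and library total (largest relative deviation 7.8e-14), so the authors applied no normalization beyond depth and length. The mm10 build and FastQC are named in the submitters' processing notes. The sources used here name no aligner, counter, annotation release or strand setting, so reads of overlapping and antisense genes cannot be told apart. Groups were taken from the labels, since the day codes in the table names differ from the labelled days. Genes missing from a table were entered as 0 reads. Of 18036 genes, 17983 were given a symbol from RefSeq (GRCm38.p6) and 53 were not; the latter held at most 0.178% of a library's reads. The stated length of 11 genes differed between the 2 day 1 libraries, which affects their RPKM and not their ratio.

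Reads were divided by the library total (8730073 unique reads in DSS and 8536432 in PhIP/DSS on day 1, and 7664276 to 8781886 over the 7 libraries). Ratios between the day 1 libraries were computed for genes with at least 10 summed reads in Python 3.11.15 with scipy 1.17.1, with a conditional exact 95% interval, and called at 2-fold. A script tested on simulated data recovered the folds it was given. Without replicates no p-value was computed; edgeR 4.0.16 and DESeq2 1.42.0 supplied only alternative size factors. The genes named are the 12 with the highest lower bounds and the 12 with the lowest upper bounds, key members of 34 lists, each list's extremes and members against its direction; others were chosen after their values were seen, among them Csf3, Il1rn, Nos2, Il33, Saa2, Slc7a11, Duox2 and Jchain. Members and lists were chosen with earlier results of these data known. Several genes stand in more than 1 list, and some genes that the rule names are not reported here.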

Additional observations from a re-analysis of the deposited data

Results flagged for a closer look

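The difference between the arms turned round between days for several groups, and this turn was not tested, since each day and arm has 1 pool. It also rests on the labelled days, from which the deposited day codes differ. Of the genes higher in PhIP/DSS on day 1, 579 were lower on day 3, and of those lower on day 1, 75 were higher on day 3. The median log2 ratio of the neutrophil markers was 4.03 on day 1, -4.70 on day 3 and -2.11 on day 7, and that of the acute inflammatory mediators 2.98, -2.83 and -1.18. For the metalloproteinases and inhibitors the medians were 2.61, -2.59 and -1.50. The neutrophil-attracting CXC chemokines had 2.46, -1.10 and -1.44, and the red blood cell markers 2.09, -1.47 and -1.05. Macrophage and monocyte markers went from 2.08 to -1.36 on day 3 and endothelial markers from 1.23 to -1.59.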

How the results depend on the processing

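No paired analysis was possible because the day 1 difference rests on 1 pooled library per group, and a fit paired by day over both arms would test a mean over the days instead. The counts of 1275 higher and 366 lower genes became 1272 and 369 with TMM, 1271 and 371 with DESeq2 size factors and 1273 and 368 with totals without the 20 most abundant genes, and these scalings moved the median log2 ratio of all genes by at most 0.02 in size. Requiring 50 summed reads left 657 higher and 126 lower, and requiring 1 read gave 2262 and 1077. A fold of 4 left 599 and 44. Counting only genes whose interval excluded 1 left 1054 and 238, and adding 1 read to both libraries gave 1227 and 304. Of the genes higher on day 1, those lower on day 3 numbered 312 at 50 reads and 258 at a fold of 4, against 579. Those higher on day 3 as well numbered 1 at 50 reads, 254 at 1 read, 21 with 1 read added, 8 with intervals excluding 1 and 1 at a fold of 4, against 33. Those lower on day 7 numbered 117 at 50 reads, 453 at 1 read and 43 at a fold of 4, against 227. Of the genes lower on day 1, those higher on day 3 numbered 29 at 50 reads, 233 at 1 read, 49 with intervals excluding 1 and 2 at a fold of 4, against 75. Each of these changes follows from the minimum, the added read or the fold itself. Centring log2 ratios within sixths of gene length, chosen after seeing the data, gave 1254 higher and 365 lower, of which 1233 and 320 were among those above. It moved the median of the regenerative epithelium list from 0.63 to 0.49 and that of the housekeeping genes from 0.14 to 0.029. At 50 reads the median of the tuft cell list was 0.55 in place of -0.45, over fewer genes. The other 235 of 238 list medians moved by less than the typical width to one side of their members' counting intervals, and 30 of 1258 values of named genes left their counting interval, with no call turned round. Depth limits genes under about 10 reads in a library, whose intervals span several-fold, and the lack of replicates limits every value.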

Other observations

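Gene families outside the lists were looked through after their values had been seen, so the counts that follow describe only this pair, beside 9.39% of all genes higher and 2.7% lower. Collagen chains went beyond the fibrillar ones of the fibroblast list. Of 26 with 10 reads, 19 were higher, among them the basement membrane chains Col4a1 and Col4a2 at 4.12-fold (3.53 to 4.81) and 3.7-fold (3.07 to 4.48) and Col18a1 at 5.71-fold (4.65 to 7.07), and 2 were lower, Col8a1 and Col20a1. Of the 19 higher chains, Col4a5, Col7a1, Col4a6 and Col23a1 had 9, 4, 4 and 3 reads in DSS. They reached the minimum only with the PhIP/DSS reads. Of 14 CC chemokines, 8 were higher. Among these 8, Ccl22, Ccl7 and Ccl8 had 5, 4 and 2 reads in DSS and likewise reached the minimum only with the PhIP/DSS reads. Ccl6 and Ccl28, a chemokine of mucosal epithelium, were within the threshold at 675 reads in PhIP/DSS against 1290 in DSS and 961 reads in PhIP/DSS against 1629 in DSS. All 6 Clec4 lectins with 10 reads, receptors of myeloid cells for microbial and damaged-cell ligands, were higher, led by Clec4d at 23.9-fold (12.3 to 52.9) and Clec4e at 21.7-fold (15.9 to 30.3). Cytosolic ribosomal protein genes gave 1 higher gene of 81, with a median log2 ratio of 0.22, and none of 36 NADH dehydrogenase subunits passed 2-fold.

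Families of sugar-transferring enzymes had members in both directions. Of 12 Galnt genes 1 was higher and none was lower, of 4 St6galnac genes none passed 2-fold, and of 6 St3gal genes 2 were higher and 1 was lower. Of 8 B3gnt genes 1 was lower and none was higher. B3gnt7, which extends sulfated sugar chains, was at 509.8 RPKM in the control, at 175, 154 and 119 RPKM in the DSS libraries of days 1, 3 and 7 and at 64.3, 281 and 219 RPKM in the PhIP/DSS libraries. It was lower by 2.72-fold (2.56 to 2.89), while B3gnt3 was at 264 against 287 RPKM. Of 6 fucosyltransferases, 2 were lower, Fut9 and Fut1, and Fut2 was within the threshold at 125 against 112 RPKM. Muc6 was lower on 5 reads in PhIP/DSS against 28 in DSS. Of 10 claudins of the tight junction, Cldn8, a sealing claudin of the distal colon, was the single one past 2-fold, lower by 2.41-fold (2.13 to 2.75). Of 11 Trp channels, 4 were higher and 3 were lower. Trpm6, a magnesium channel of the large bowel, was lower by 2.43-fold (2.13 to 2.77). Of 7 gasdermins, 1 was higher, Gsdma on 34 reads in PhIP/DSS against 15 in DSS, and 1 was lower. Gsdmc was lower by 2.88-fold (1.71 to 5.06), while Gsdmc2, Gsdmc3 and Gsdmc4, close copies of it, were lower within 2-fold.

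Hox genes set position along the gut. In paralog group 13, the most posterior, Hoxb13 was at 320.3 RPKM in the control, at 136, 134 and 159 RPKM in the DSS libraries of days 1, 3 and 7 and at 58.1, 196 and 259 RPKM in the PhIP/DSS libraries. The day 1 difference was lower by 2.33-fold (2.13 to 2.56), and Hoxd13 was lower by 2.87-fold (2.39 to 3.46), while Hoxa13 had 230 reads in PhIP/DSS against 275 in DSS. In groups 9 to 12, 2 of 8 were lower, Hoxd11 and Hoxd12, with a median log2 ratio of -0.17 over the 8, and in groups 1 to 8, 1 of 12 was higher, with a median of -0.09.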
